A study of Mus musculus with 48 samples.

Results

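The Gadd45 family consists of 3 genes, Gadd45a, Gadd45b and Gadd45g, and all 3 were found by symbol among the 20171 genes of the deposited count table. They were followed through 48 libraries of mouse embryonic stem cells, which are self-renewing cells of the early embryo kept in culture with the cytokine LIF. The cells were of 129S6/SvEvTac background, and every genotype carried the reporter named GFP_5xT71BS. The untagged control line has, per its label, a stable transfection of FLAG-Cas9 with a blasticidin resistance. The HA-Tnrc6a line also carried HA-AVI-Tnrc6a, an epitope tag on Tnrc6a. The Ago2 knockout line was HA-AVI-Tnrc6a with Ago2-/-, and the line labelled Upf1 knockout was HA-AVI-Tnrc6a with Upf1-/-. From each line, RNA was sequenced from the cell lysate (input) and from what magnetic beads coated with anti-HA antibody held back from that lysate (IP). This gave 8 groups of 6 libraries. The labels describe dishes grown in triplicate and do not state how many clones stand behind a genotype, so the p-values measure the spread between dishes.

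The labels place 3 libraries of each group in experiment 3 and 3 in experiment 4. The columns of the table are numbered 1 to 6 within a group, and they do not name the experiment. Libraries 1 to 3 and libraries 4 to 6 were therefore kept as 2 sets. That the first set is experiment 3 is not stated, and exchanging the names would change no value. Library totals ran from 11471544 to 19595405 counts in the first set and from 25724085 to 73845953 in the second. Levels are CPM, a gene's counts scaled to a common library size, and depth differs between the sets, so each set is given on its own.

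Gadd45 proteins are small acidic nuclear proteins induced by DNA damage, growth arrest signals and other stress. They bind the kinase Map3k4 (MEKK4) upstream of p38 and JNK, the sliding clamp Pcna, the p21 protein encoded by Cdkn1a, and the Cdk1 kinase, and they have been linked to active DNA demethylation. Their mRNAs are short-lived. Upf1 is the RNA helicase at the centre of nonsense-mediated decay (NMD), which removes transcripts whose translation ends in a setting read as premature. In mammalian and fly cells lacking NMD, Gadd45 transcripts are known to accumulate and to contribute to the loss of viability. Ago2 is the Argonaute protein that carries microRNAs to target mRNAs, and Tnrc6a (GW182) is its partner that recruits the deadenylases. The comparison of genotypes asks how far each of these proteins bears on the amount of Gadd45 mRNA in the lysate and on its recovery with Tnrc6a.

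The genes lie on separate chromosomes, and their promoter windows are shown with matches to short motifs. Gadd45a (ENSMUSG00000036390) lies on the minus strand of chromosome 6 at 67035096 to 67037407. Gadd45b (ENSMUSG00000015312) lies on the plus strand of chromosome 10 at 80930091 to 80932204. Gadd45g (ENSMUSG00000021453) lies on the plus strand of chromosome 13 at 51846675 to 51848475. Positions and sequences are those of RefSeq on GRCm38.p6, and GRCm38 is the build named in the submitters' processing notes. Each sequence is the 150 bases before the annotated start, 5′ to 3′ on the strand of the gene, at chr6:67037408-67037557, chr10:80929941-80930090 and chr13:51846525-51846674. Capitals mark 3 motifs searched on both strands, the CCAAT box (CCAAT), the octamer core (TTTGCAT) and TATAAA.
Gadd45a: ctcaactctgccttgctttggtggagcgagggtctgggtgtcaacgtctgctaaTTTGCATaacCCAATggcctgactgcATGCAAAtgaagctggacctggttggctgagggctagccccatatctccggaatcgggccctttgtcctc
Gadd45b: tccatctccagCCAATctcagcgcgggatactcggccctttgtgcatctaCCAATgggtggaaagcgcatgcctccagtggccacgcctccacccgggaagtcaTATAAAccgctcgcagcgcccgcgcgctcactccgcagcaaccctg
Gadd45g: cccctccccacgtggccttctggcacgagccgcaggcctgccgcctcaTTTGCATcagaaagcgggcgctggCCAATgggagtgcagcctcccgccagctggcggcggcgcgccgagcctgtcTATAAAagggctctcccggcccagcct

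All 3 promoters hold CCAAT, which 24.5% of 32851 RefSeq promoter windows of this length hold. The Gadd45a window has the octamer core on each strand, beginning at -96 and -70 from the start, with the CCAAT box between them at -86. The Gadd45g window has 1 octamer core at -102 and a CCAAT box at -78, and Gadd45b has no octamer core and 2 CCAAT boxes. The octamer core is held by 2.36% of windows. TATAAA is held by Gadd45b and Gadd45g and by 7.57% of windows, and these letters are not in the Gadd45a window. These are matches of letters, which were not tested for binding of any factor.

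Before the Gadd45 values, the labels were checked against the genes they name. Ago2 mRNA fell by 1.21 ± 0.03 (SE) on the log2 scale in Ago2 knockout inputs relative to HA-Tnrc6a inputs (edgeR adjusted p = 6.3e-34). Upf1 mRNA was not lower in the inputs labelled Upf1 knockout but higher, by 0.58 ± 0.03 (edgeR adjusted p = 1.17e-22). The mRNA level therefore does not bear the label out, and protein was not measured in these libraries. The term "labelled Upf1 knockout" is used below. Upf1 is itself among the 17 NMD substrates listed below, of which 14, Upf1 included, rose in these inputs. The cause of the Upf1 rise was not tested. Tnrc6a mRNA, whose protein the beads hold, was 7.77 ± 0.18 more enriched on the log2 scale from HA-Tnrc6a than from untagged cells. The 10 stem cell markers examined summed to 6949 to 8421 CPM in every input group. The measured markers of other lineages were low but present: endoderm markers summed to 4.79 to 38.5 CPM, mesoderm to 5.93 to 15.7, fibroblast to 23.1 to 47.4 and neuroectoderm to 49.4 to 107, and their part in the results was not tested. HA-Tnrc6a input 3 stood apart from inputs 1 and 2, with a chi-square per degree of freedom over genes of 34.3 and 28.9 against 2.66 between those 2, and results without it are given below. Among IPs, number 4 labelled Upf1 knockout stood apart from 5 and 6 (26.3 and 36.2 against 4.69), and leaving it out changed no Gadd45 call. HA-Tnrc6a IP 4 stood apart from 5 and 6 (22.5 and 19.0 against 7.84). Untagged IP 5 stood apart from 4 and 6 (19.7 and 14.8 against 5.73). HA-Tnrc6a IPs 1 and 3 differed by 27.4, and untagged IPs 1 to 3 differed from each other by 17.1 to 29.9. Untagged input 1 stood apart from inputs 2 and 3 by less (10.7 and 9.48 against 1.96). No pair of libraries agreed within sampling noise.

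Among the 3 genes, Gadd45a gave the most RNA in stem cells and Gadd45g the least. Per kilobase of transcript, HA-Tnrc6a inputs 1 to 3 held 9.89 ± 0.60 CPM of Gadd45a (SD, n = 3), 6.50 ± 0.17 of Gadd45b and 2.26 ± 0.23 of Gadd45g. In inputs 4 to 6 the same order held, at 15.8 ± 1.66, 3.56 ± 0.26 and 0.65 ± 0.12 CPM per kilobase. In inputs labelled Upf1 knockout the order changed in libraries 1 to 3, where Gadd45b reached 20.0 ± 0.98 and Gadd45a 16.3 ± 0.30 CPM per kilobase. Raw counts per library were 273 to 6240 for Gadd45a, 100 to 679 for Gadd45b and 15 to 108 for Gadd45g, so the counting error is widest for Gadd45g.

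**Figure D1:**
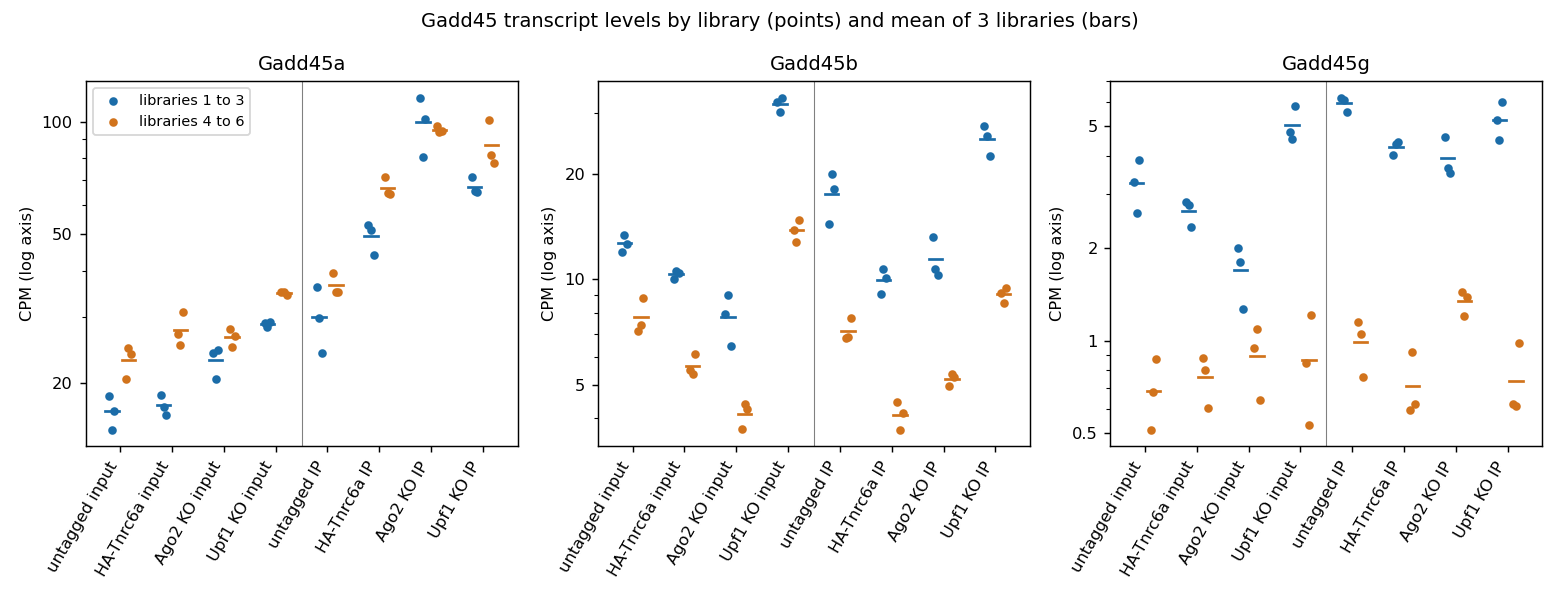
CPM of each Gadd45 gene in each of the 48 libraries (points, log axis) with the mean of each 3 libraries (bars), for inputs and IPs of the 4 genotypes and separately for libraries 1 to 3 and 4 to 6. The Gadd45b inputs labelled Upf1 knockout lie above every other input of their set, and the Gadd45a IPs of Ago2 knockout cells reach the highest CPM of that gene.

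Gadd45b, the member known for rapid induction by NF-kappaB and TGF-beta signals, differed most between lysates. HA-Tnrc6a inputs 1 to 3 held 10.0, 10.6 and 10.4 CPM of Gadd45b, and inputs 4 to 6 held 5.49, 5.37 and 6.13. Cells labelled Upf1 knockout had input levels of 32.1, 30.1 and 33.1 CPM in libraries 1 to 3 and 13.8, 12.8 and 14.8 CPM in libraries 4 to 6. Every library labelled Upf1 knockout was above every HA-Tnrc6a library of its set. Here and below, the share of all genes whose libraries part in this way was not counted, so such statements are descriptions. Gadd45b rose 2.75-fold, by 1.46 ± 0.06 (SE) on the log2 scale (edgeR adjusted p = 9.25e-25), with 1.61 in libraries 1 to 3 and 1.30 in libraries 4 to 6. In this comparison 58.6% of 19444 genes passed the test, 29.5% higher and 29.0% lower, so a call alone sets a gene little apart. By size, Gadd45b ranked 122 from the top of the 19444.

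In Ago2 knockout inputs Gadd45b moved the other way. Levels were 7.96, 9.01 and 6.45 CPM in libraries 1 to 3 and 3.74, 4.40 and 4.25 CPM in libraries 4 to 6. All 6 were below the HA-Tnrc6a inputs of their set. Gadd45b fell by 0.43 ± 0.09 on the log2 scale (edgeR adjusted p = 0.000205), with -0.40 and -0.46 in the 2 sets. Of 19641 genes tested, 30.9% passed, 15.7% higher and 15.2% lower. Compared directly with Ago2 knockout inputs, those labelled Upf1 knockout differed by 1.89 ± 0.07 on the log2 scale, 3.69-fold higher (edgeR adjusted p = 9.37e-29), at rank 111 from the top of 19419 genes, of which 62.3% passed, 30.9% higher and 31.4% lower.

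The tagged and the untagged lines also differed in Gadd45b. Untagged inputs held 12.0, 13.4 and 12.6 CPM in libraries 1 to 3 and 7.13, 7.39 and 8.82 CPM in libraries 4 to 6, and all 6 were above the HA-Tnrc6a inputs of their set. The difference was 0.38 ± 0.08 on the log2 scale, or 1.30-fold (edgeR adjusted p = 0.00102), in a comparison where 15.4% of 19407 genes passed, 7.67% higher and 7.74% lower. From lowest to highest, Gadd45b inputs stood in the order Ago2 knockout, HA-Tnrc6a, untagged and labelled Upf1 knockout in both sets. The genotypes compared did not overlap, and how many other genes part in this way was not counted. In bulk RNA a change in every cell cannot be told apart from a change in the share of cells that express the gene. Neuroectoderm markers summed to 107 and 103 CPM in the Ago2 knockout inputs of the 2 sets, 80.4 and 79.6 in HA-Tnrc6a inputs and 63.4 and 49.4 in inputs labelled Upf1 knockout, most of it Tubb3 (group means of 35.4 to 97.7 CPM). Endoderm markers moved in the direction of Gadd45b in Ago2 knockout inputs, at 4.83 and 4.79 CPM against 15.1 and 19.9 in HA-Tnrc6a inputs, and summed to 8.47 and 38.5 in inputs labelled Upf1 knockout. Fibroblast markers summed to 28.4 and 23.1 CPM in Ago2 knockout inputs against 38.2 and 35.0 in HA-Tnrc6a inputs. Under the Upf1 knockout label their sum was lower than in HA-Tnrc6a in the first set (31.3) and higher in the second (47.4). Mesoderm sums for HA-Tnrc6a were 7.34 CPM in the first set and 7.59 in the second. The Upf1 knockout label had higher mesoderm sums in each set, 8.73 and then 15.7. For Ago2 knockout the mesoderm sum was lower in the first set (6.65) and higher in the second (8.78). The part of these markers in the Gadd45b result was not tested.

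Gadd45a, the founding member and a direct p53 target, rose by less. HA-Tnrc6a inputs held 18.6, 17.3 and 16.4 CPM of Gadd45a in libraries 1 to 3 and 27.1, 25.3 and 31.0 CPM in libraries 4 to 6. Inputs labelled Upf1 knockout held 29.0, 28.2 and 29.2 CPM and 35.0, 35.1 and 34.4 CPM. The groups did not overlap in either set, and the 6 libraries labelled Upf1 knockout were close to each other within a set. Gadd45a rose 1.44-fold, by 0.53 ± 0.05 on the log2 scale (edgeR adjusted p = 6.14e-13). As given above, 58.6% of genes passed in this comparison, 29.5% higher and 29.0% lower. The rise was 0.72 in libraries 1 to 3 and 0.34 in libraries 4 to 6, and this difference between sets passed the test at -0.38 (edgeR adjusted p = 0.00632), as did 11.6% of genes. In 1 fit of all 48 libraries it was -0.40 and did not pass (edgeR adjusted p = 0.167).

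In Ago2 knockout inputs Gadd45a stood at 24.1, 20.5 and 24.5 CPM in libraries 1 to 3 and at 27.9, 25.0 and 26.7 CPM in libraries 4 to 6. The first 3 were above the HA-Tnrc6a inputs, and the last 3 overlapped with them. Averaged over the sets the difference was 0.17 ± 0.06 on the log2 scale (edgeR adjusted p = 0.0206), made of 0.40 in libraries 1 to 3 and -0.07 in libraries 4 to 6. That difference between sets passed the test (edgeR adjusted p = 0.00512), in a comparison where 5.94% of genes did. The averaged difference passed for 30.9% of genes, 15.7% higher and 15.2% lower. In 1 fit of all 48 libraries neither passed, at 0.17 for the average (edgeR adjusted p = 0.138) and -0.47 between sets (edgeR adjusted p = 0.143). The averaged call was lost when HA-Tnrc6a input 3 or 5 or Ago2 knockout input 1 or 4 was left out, with values of 0.13 to 0.15. In untagged inputs Gadd45a held 18.5, 15.0 and 16.9 CPM and 20.5, 24.9 and 24.0 CPM, a difference from HA-Tnrc6a of -0.16 ± 0.07 that did not pass (edgeR adjusted p = 0.101) but passed at -0.20 without untagged input 1 (edgeR adjusted p = 0.0202), the library named above as apart from inputs 2 and 3.

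Gadd45g, the member known for roles in sex determination and neural and retinal development, had the fewest counts. HA-Tnrc6a inputs held 2.84, 2.77 and 2.35 CPM in libraries 1 to 3 and 0.876, 0.805 and 0.603 CPM in libraries 4 to 6. With Upf1 knockout as the label, inputs held 4.78, 4.54 and 5.83 CPM and 0.847, 0.533 and 1.21 CPM. The groups were apart in libraries 1 to 3 and overlapped in libraries 4 to 6. The averaged difference was 0.58 ± 0.17 on the log2 scale (edgeR adjusted p = 0.00361), with 0.92 and 0.24 in the sets, and without input 6 labelled Upf1 knockout it was 0.41 and did not pass (edgeR adjusted p = 0.0602). In the same comparison 58.6% of genes passed, 29.5% higher and 29.0% lower.

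Ago2 knockout inputs held 2.01, 1.80 and 1.27 CPM of Gadd45g in libraries 1 to 3, all below HA-Tnrc6a, and 0.949, 1.09 and 0.639 CPM in libraries 4 to 6, which overlapped with it. The averaged difference of -0.21 ± 0.20 did not pass (edgeR adjusted p = 0.459). Gadd45g was 0.78 ± 0.19 higher in inputs labelled Upf1 knockout than in Ago2 knockout inputs (edgeR adjusted p = 0.000252). Of all genes tested there, 62.3% passed, 30.9% higher and 31.4% lower. The Gadd45g difference rested on libraries 1 to 3, at 1.54 against 0.03 in libraries 4 to 6. The difference between sets was -1.51 (edgeR adjusted p = 0.00297, a test that 13.1% of genes passed). Untagged inputs of Gadd45g, at 3.29, 2.60 and 3.89 CPM and 0.512, 0.679 and 0.869 CPM, overlapped with HA-Tnrc6a in both sets.

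**Figure D2:**
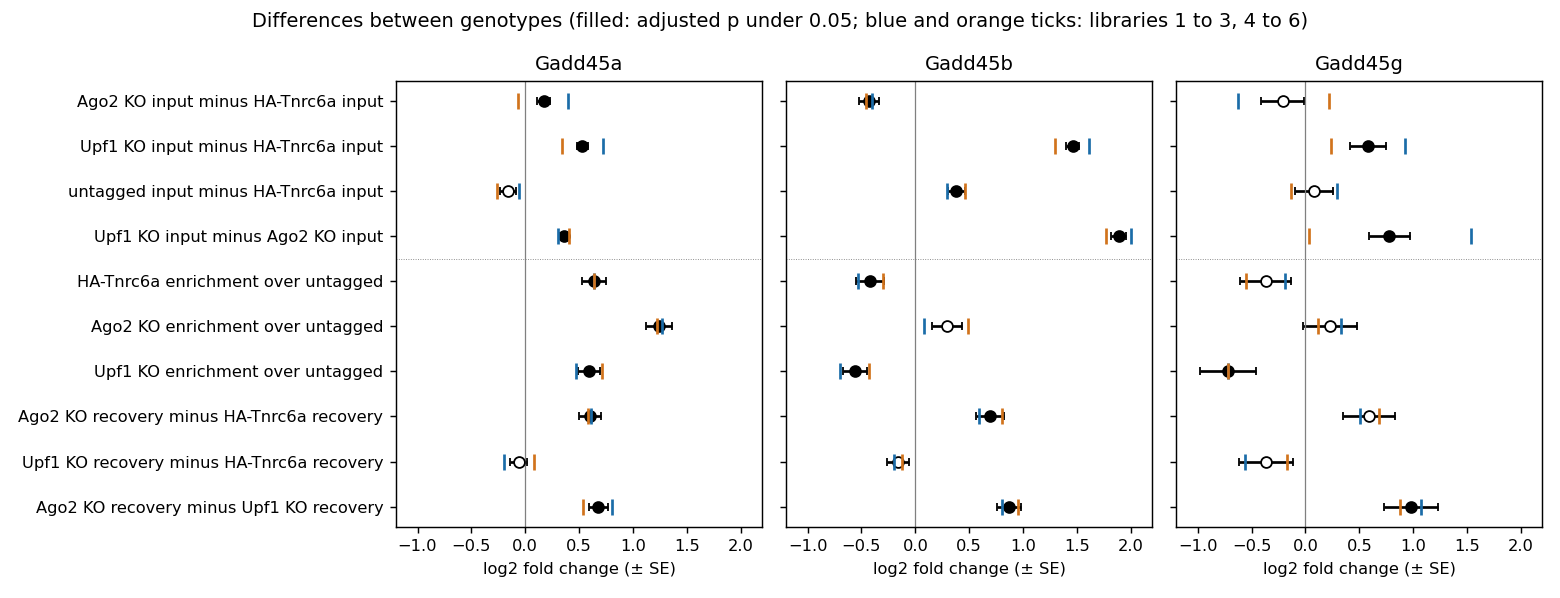
log2 fold changes of each Gadd45 gene with SE in 10 comparisons, 4 between inputs and 6 between IP-over-input ratios. Filled points have an adjusted p under 0.05, and ticks show the value in libraries 1 to 3 (blue) and 4 to 6 (orange). Gadd45b in inputs labelled Upf1 knockout lies at 1.46 and in Ago2 knockout inputs at -0.43, and the sets part for Gadd45a in Ago2 knockout inputs at 0.40 and -0.07.

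To set beside the Gadd45 genes, 17 RNAs known as NMD substrates were listed, with Upf1 among them. In lysate levels slower decay cannot be told apart from more transcription, and neither was tested. In inputs labelled Upf1 knockout 14 of the 17, Upf1 included, rose and 2 fell, with a median of 0.75 on the log2 scale. Over all 19444 genes 29.5% rose and 29.0% fell, with a median of -0.02. Ddit3, which encodes the stress factor CHOP, rose by 1.56 ± 0.05, and the snoRNA host transcript Snhg12 by 1.42 ± 0.03. Atf4, whose translation is gated by upstream reading frames, rose by 1.33 ± 0.02, and Ppp1r15a, a relative of the Gadd45 genes in name (GADD34) that encodes a phosphatase subunit, by 1.00 ± 0.04 (named after its value was seen). The value of Gadd45b, 1.46, fell between those of Ddit3 and Snhg12, while Gadd45a and Gadd45g fell near Upf1 itself. Srsf2 and Srsf3, splicing factors with poison exons, fell by 0.29 ± 0.02 and 0.08 ± 0.02.

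In Ago2 knockout inputs 5 of the 17 rose and 2 fell, beside 15.7% and 15.2% of all genes, with a median of 0.03 beside -0.01. Ddit3 fell by 0.67 ± 0.07 (edgeR adjusted p = 1.22e-10) and the snoRNA host Gas5 by 0.22 ± 0.02. Atf4 rose by 0.11 ± 0.02. Gadd45b and Ddit3 therefore both had their higher level in cells labelled Upf1 knockout and their lower level in Ago2 knockout cells, in comparisons that share the HA-Tnrc6a inputs.

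**Figure D3:**
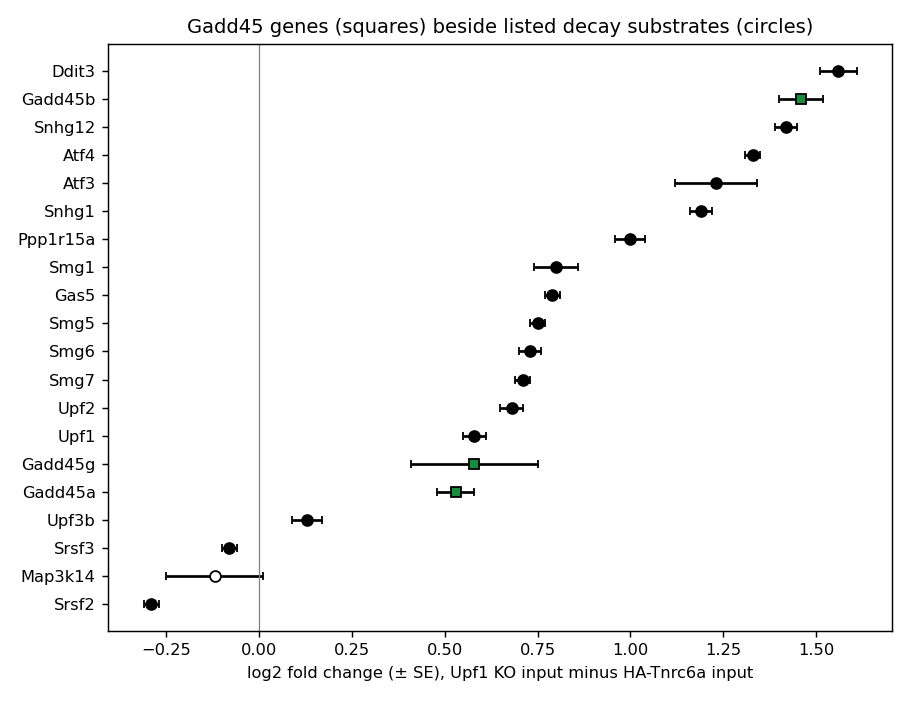
log2 fold change with SE between inputs labelled Upf1 knockout and HA-Tnrc6a inputs for the 3 Gadd45 genes (squares) and the 17 listed NMD substrates (circles, open where the adjusted p is 0.05 or more). Gadd45b at 1.46 lies between Ddit3 at 1.56 and Snhg12 at 1.42, and Srsf2 is lowest at -0.29.

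Recovery on the beads was read as the log2 ratio of IP over input, which measures a transcript relative to the other RNAs of the same IP. Gadd45a was recovered above the bead background and Gadd45b below it. Untagged IPs held 36.1, 29.8 and 24.1 CPM of Gadd45a in libraries 1 to 3 and 39.5, 35.0 and 35.1 CPM in libraries 4 to 6. HA-Tnrc6a IPs held 53.0, 51.3 and 44.0 CPM and 71.3, 64.4 and 64.1 CPM, all above the untagged IPs of their set. With inputs taken into account, Gadd45a was enriched over untagged cells by 0.64 ± 0.11 on the log2 scale, or 1.56-fold (edgeR adjusted p = 6.3e-06), with 0.64 in each set. In this comparison 62.0% of 19993 genes passed, 29.8% higher and 32.2% lower, and the median of all genes was -0.10.

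For Gadd45b the order of the same groups was the reverse. Untagged IPs held 14.4, 20.0 and 18.1 CPM and 6.79, 6.85 and 7.77 CPM, and HA-Tnrc6a IPs held 9.09, 10.7 and 10.1 CPM and 4.45, 3.71 and 4.15 CPM. All HA-Tnrc6a IPs were below the untagged IPs of their set. Gadd45b enrichment was -0.42 ± 0.13 on the log2 scale, a ratio of 0.750 (edgeR adjusted p = 0.00479). Gadd45g enrichment, -0.37 ± 0.24, did not pass (edgeR adjusted p = 0.185). Scaling by library totals in place of TMM moved the median of all genes from -0.10 to -0.25 here, from -0.07 to -0.22 in Ago2 knockout enrichment and from -0.06 to -0.32 in enrichment from cells labelled Upf1 knockout, and it changed no call or direction of a Gadd45 gene.

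Without Ago2, recovery of Gadd45a and Gadd45b was higher. Ago2 knockout IPs held 116, 80.7 and 102 CPM of Gadd45a in libraries 1 to 3 and 97.6, 94.1 and 94.3 CPM in libraries 4 to 6, every one above the HA-Tnrc6a IPs of its set. The log2 ratio of IP over input for Gadd45a was 2.10 ± 0.17 (SE) and 1.85 ± 0.05 in Ago2 knockout cells, against 1.50 ± 0.10 and 1.26 ± 0.10 in HA-Tnrc6a cells and 0.82 ± 0.19 and 0.66 ± 0.10 in untagged cells. Recovery of Gadd45a rose by 0.60 ± 0.10 on the log2 scale, or 1.51-fold (edgeR adjusted p = 1.58e-05). Of 19995 genes 21.3% passed this test, 9.09% higher and 12.3% lower, and Gadd45a ranked 982 from the top. Its enrichment over untagged cells was 1.24 ± 0.12, or 2.37-fold (edgeR adjusted p = 1.13e-10), where 64.7% of 19982 genes passed, 31.5% higher and 33.2% lower.

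Gadd45b in Ago2 knockout IPs stood at 13.2, 10.7 and 10.3 CPM in libraries 1 to 3 and at 4.96, 5.36 and 5.26 CPM in libraries 4 to 6. These overlapped with the HA-Tnrc6a IPs in the first set and were above them in the second, while the inputs were lower. The log2 ratio of IP over input was 0.54 ± 0.18 and 0.33 ± 0.08, against -0.05 ± 0.07 and -0.46 ± 0.09 in HA-Tnrc6a cells. Recovery of Gadd45b rose by 0.69 ± 0.13, or 1.62-fold (edgeR adjusted p = 0.000112), with rank 692 of 19995. Over untagged cells, whose log2 ratios were 0.45 ± 0.15 and -0.12 ± 0.11, Gadd45b enrichment was 0.29 ± 0.14 and did not pass (edgeR adjusted p = 0.0641). It passed at 0.32 to 0.34 without Ago2 knockout input 2, Ago2 knockout IP 3, untagged IP 2 or untagged IP 6. On the level in the IPs alone, Ago2 knockout was 0.49 ± 0.10 below untagged on the log2 scale.

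Gadd45g in Ago2 knockout IPs held 4.61, 3.66 and 3.52 CPM and 1.44, 1.20 and 1.39 CPM, against 4.04, 4.38 and 4.43 CPM and 0.595, 0.919 and 0.623 CPM in HA-Tnrc6a IPs. The groups overlapped in libraries 1 to 3 and were apart in libraries 4 to 6. The difference in recovery, 0.59 ± 0.24, was of the size seen for the other members but did not pass (edgeR adjusted p = 0.0793). It passed without Ago2 knockout input 5, at 0.69 (edgeR adjusted p = 0.0488), and without HA-Tnrc6a IP 5, at 0.71 (edgeR adjusted p = 0.0439). Over untagged cells, Gadd45g enrichment from Ago2 knockout cells was 0.23 and did not pass (edgeR adjusted p = 0.435). Tnrc6a mRNA was 0.51 ± 0.03 higher on the log2 scale in Ago2 knockout inputs than in HA-Tnrc6a inputs, and its part in the recovery of the Gadd45 genes was not tested.

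**Figure D4:**
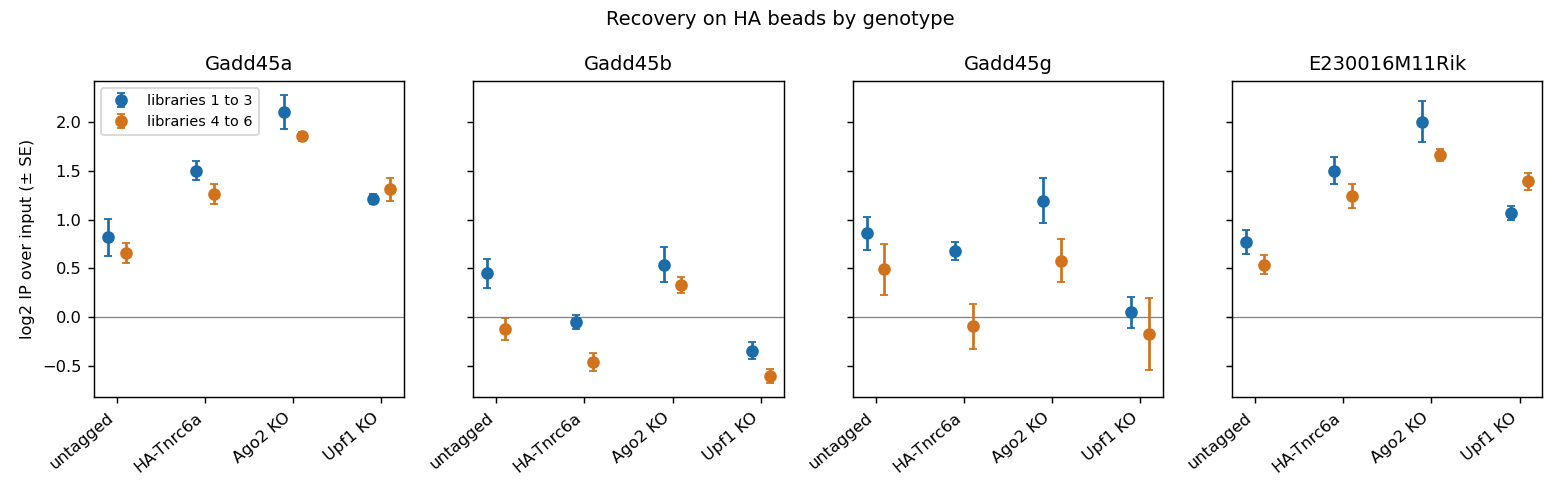
log2 ratio of IP over input with SE for the 3 Gadd45 genes and E230016M11Rik in 4 genotypes, for libraries 1 to 3 (blue) and 4 to 6 (orange), n = 3 inputs and 3 IPs per point. For each gene the Ago2 knockout point is the highest of its set, and Gadd45a is above 0 in every genotype.

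In cells labelled Upf1 knockout no difference in recovery from HA-Tnrc6a cells was detected for any member. Gadd45a differed by -0.06 ± 0.08 on the log2 scale (edgeR adjusted p = 0.793), Gadd45b by -0.16 ± 0.10 (edgeR adjusted p = 0.464) and Gadd45g by -0.37 ± 0.25 (edgeR adjusted p = 0.503). Leaving out 1 library at a time, no fit passed, with ranges of -0.17 to -0.03 for Gadd45a (lowest without IP 4 labelled Upf1 knockout), -0.25 to -0.13 for Gadd45b (lowest without HA-Tnrc6a input 6) and -0.50 to -0.20 for Gadd45g (lowest and highest without IP 6 and input 6 labelled Upf1 knockout). In this comparison 4.49% of 19966 genes passed, 2.92% higher and 1.57% lower. Of those passing 65.1% were higher, a share that was 22.4% when library totals replaced TMM and 52.8% with RLE size factors. The count of 896 genes fell to between 591 and 596 when HA-Tnrc6a input 2, 3, 5 or 6 was left out.

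The IP levels themselves were higher in cells labelled Upf1 knockout, as the inputs were. Gadd45b held 27.4, 25.7 and 22.5 CPM in those IPs in libraries 1 to 3 and 9.15, 8.58 and 9.47 CPM in libraries 4 to 6, each above all HA-Tnrc6a IPs of its set, a difference of 1.26 ± 0.09 on the log2 scale (edgeR adjusted p = 2.27e-10) beside 1.46 in the inputs. Gadd45a held 71.2, 65.2 and 64.8 CPM and 101, 81.5 and 77.6 CPM, a difference of 0.43 ± 0.07 between IPs (edgeR adjusted p = 2.24e-05). Gadd45g held 5.24, 4.50 and 5.98 CPM and 0.622, 0.611 and 0.981 CPM, which differed from HA-Tnrc6a IPs by 0.17 ± 0.18 (edgeR adjusted p = 0.452). Over untagged cells the enrichment of Gadd45a was 0.59 ± 0.10 (edgeR adjusted p = 6.08e-06) and that of Gadd45b -0.56 ± 0.11 (edgeR adjusted p = 4.13e-05). For Gadd45g it was -0.72 ± 0.26 (edgeR adjusted p = 0.0145), and -0.55 without input 6 labelled Upf1 knockout (edgeR adjusted p = 0.0655). Here 63.6% of 19910 genes passed, 31.8% higher and 31.8% lower, and the higher share of calls was 50.0%, or 36.4% with library totals.

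Ago2 knockout cells and cells labelled Upf1 knockout were then set against each other in recovery, a comparison chosen after the values above were known. All 3 genes were recovered more from Ago2 knockout cells than from cells labelled Upf1 knockout, Gadd45a by 0.68 ± 0.09 on the log2 scale (edgeR adjusted p = 3.19e-07), Gadd45b by 0.87 ± 0.11 (edgeR adjusted p = 1.13e-07) and Gadd45g by 0.98 ± 0.25 (edgeR adjusted p = 0.00322). Of 19962 genes 24.4% passed, 10.9% higher and 13.5% lower, and higher calls made up 44.6% of calls, or 63.4% with library totals. Gadd45g ranked 326 from the top, Gadd45b 463 and Gadd45a 859. Within sets the values were of the same sign for each gene. Over untagged cells, only Gadd45a was enriched in both lines. In Ago2 knockout cells Gadd45b (0.29, edgeR adjusted p = 0.0641) and Gadd45g (0.23, edgeR adjusted p = 0.435) did not pass. From cells labelled Upf1 knockout both were below untagged cells, at -0.56 and -0.72. In the IPs alone, without inputs, Gadd45b was lower in Ago2 knockout than in the other line, by -0.99 ± 0.08 (edgeR adjusted p = 5.55e-10), and Gadd45g did not pass at 0.21 ± 0.16 (edgeR adjusted p = 0.278). In libraries 4 to 6 alone Gadd45g differed by 0.82 and did not pass (edgeR adjusted p = 0.224).

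**Figure D5:**
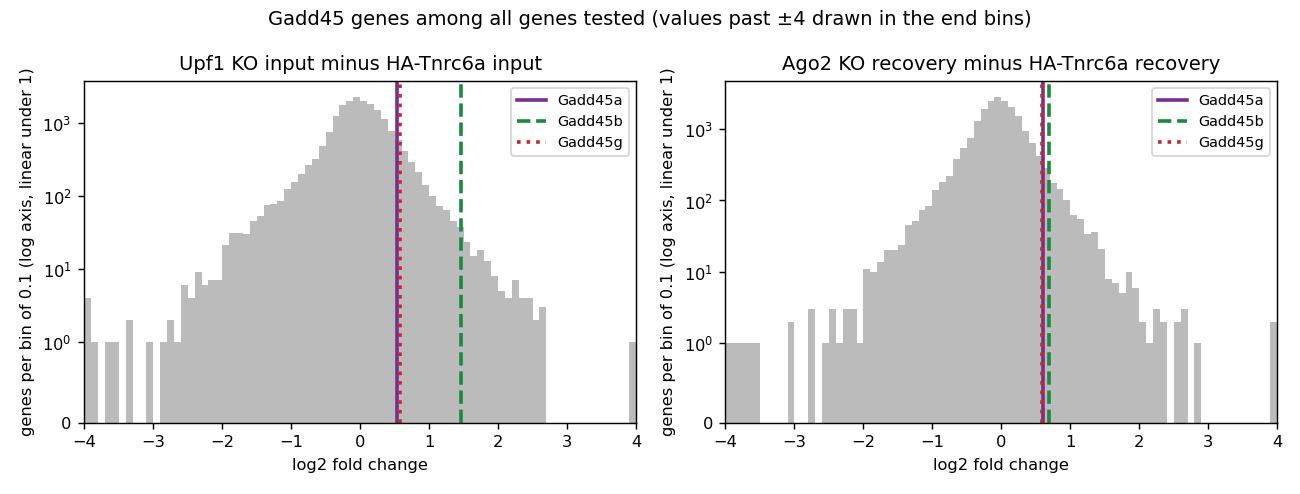
Histograms of log2 fold changes of all genes tested, in bins of 0.1 with a log count axis that is linear under 1, for inputs labelled Upf1 knockout against HA-Tnrc6a (left) and for recovery in Ago2 knockout against HA-Tnrc6a (right). Vertical lines mark the Gadd45 genes, with Gadd45b at 1.46 on the left and all 3 between 0.59 and 0.69 on the right.

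Reads of Gadd45a may be shared with a neighbour. The noncoding RNA E230016M11Rik (ENSMUSG00000087231) lies on the opposite strand at 67036599 to 67080652 of chromosome 6 and shares 809 bases with the Gadd45a gene. Its counts were 21.9% to 33.5% of those of Gadd45a in every library, with a median of 27.4%. The library kit keeps strand, but whether counting used strand is not given in the sources used here, so reads of the 2 genes cannot be told apart. E230016M11Rik had values close to those of Gadd45a, 0.52 in inputs labelled Upf1 knockout (edgeR adjusted p = 8.5e-07), 0.72 in HA-Tnrc6a enrichment (edgeR adjusted p = 1.94e-05) and 0.48 in Ago2 knockout recovery (edgeR adjusted p = 0.00606). Gadd45b and Gadd45g overlap no other RefSeq gene.

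The members did not follow 1 pattern across libraries. Over the 48 libraries, with log2 CPM centred on the mean of each set, Pearson's r was 0.06 between Gadd45a and Gadd45b, 0.37 between Gadd45a and Gadd45g and 0.42 between Gadd45b and Gadd45g. These points share groups and library scaling, so the values are descriptions. Among 10840 genes compared, those most like Gadd45a were E230016M11Rik (r = 0.99), Cep83 and Taf4 (both 0.97). Those most like Gadd45b were Rapgef3 (0.91), Ntmt1 and Arrdc2 (both 0.90), and for Gadd45g they were Hnrnpdl (0.62), E530011L22Rik and Macf1 (both 0.61).

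Partners of Gadd45 proteins and the stress MAP kinases they act on showed no common direction in the lysates. In inputs labelled Upf1 knockout 8 of 17 tested rose and 6 fell, beside 29.5% and 29.0% of all genes, with a median of -0.03 on the log2 scale beside -0.02. Map2k3, a kinase that activates p38, rose by 0.35 ± 0.03, and Pcna fell by 0.29 ± 0.03. In Ago2 knockout inputs 5 of 18 rose and 5 fell, beside 15.7% and 15.2% of all genes, and Mapk13, a p38 isoform, fell by 0.62 ± 0.07. In HA-Tnrc6a enrichment 10 of 18 were higher and 6 lower, beside 29.8% and 32.2% of all genes, with a median of 0.23 beside -0.10. Cdkn1a, the cell cycle inhibitor p21, was enriched by 5.80 ± 0.11 on the log2 scale (edgeR adjusted p = 9.77e-28), against 0.64 for Gadd45a. Map3k4, the kinase that Gadd45 proteins activate, was recovered more from Ago2 knockout than from HA-Tnrc6a cells, by 0.34 ± 0.07 (edgeR adjusted p = 0.000857). In that comparison 3 of the 18 were higher and 2 lower, beside 9.09% and 12.3% of all genes. Log2 ratios of IP over input for Map3k4 were -0.17 and 0.07 in untagged cells in the 2 sets. They were -0.44 and -0.19 in HA-Tnrc6a cells, below untagged cells, and -0.14 and 0.19 in Ago2 knockout cells, near untagged cells.

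Of 18 transcription factors known to act on Gadd45 genes, 17 were tested in the inputs. Relative to HA-Tnrc6a inputs, 7 rose and 5 fell in inputs labelled Upf1 knockout, beside 29.5% and 29.0% of all genes, with a median of -0.02, equal to that of all genes. Atf4 rose, as above, and Egr1, an immediate early factor, fell by 2.01 ± 0.04. Trp53, the activator of Gadd45a after DNA damage, fell by 0.24 ± 0.02, and Myc fell by 0.48 ± 0.05. In HA-Tnrc6a enrichment 13 of 18 were higher and 3 lower, beside 29.8% and 32.2% of all genes, with a median of 0.92 beside -0.10. Nfya, a subunit of the factor that binds CCAAT boxes, was enriched by 2.89 ± 0.08. Myc was among those lower, at -0.83 ± 0.09, and its recovery rose by 0.70 ± 0.09 in Ago2 knockout cells (edgeR adjusted p = 6.18e-07). Log2 ratios of IP over input for Myc were 0.84 and 1.02 in untagged cells in the 2 sets. They were 0.04 and 0.15 in HA-Tnrc6a cells and 0.71 and 0.85 in Ago2 knockout cells, still below untagged cells.

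HA-Tnrc6a input 3 was the input that stood furthest apart. Without it, Gadd45b differed by 1.46 ± 0.07 in inputs labelled Upf1 knockout and by -0.42 ± 0.10 in Ago2 knockout inputs. Gadd45a then differed by 0.51 ± 0.05 in inputs labelled Upf1 knockout. Gadd45a enrichment was 0.62 ± 0.12 and Gadd45b enrichment -0.42 ± 0.13. Recovery in Ago2 knockout cells was higher by 0.62 ± 0.10 for Gadd45a and by 0.70 ± 0.14 for Gadd45b. Of the calls on the 3 genes only that of Gadd45a in Ago2 knockout inputs was lost, at 0.15 (edgeR adjusted p = 0.0556).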

How the data were processed

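RNA from inputs and anti-HA IPs was sequenced from a stranded total RNA kit, per the labels' protocols. The submitters' processing notes name bcl2fastq 2.20, STAR 2.7.3a and the builds GRCm38 and mm10. The counting tool is not given in the sources used here. The authors deposited 1 table of raw counts per gene and library, of which 48 count columns were used and 48 columns headed as RPKM were not. The table's lowest row maximum is 11 counts, and 16427 symbols came from it, 3725 from a reference table, with 19 genes unnamed. The column headers give group and number only. The gene length column, deposited by the authors (other unit, bases), gave CPM per kilobase.

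Counts were tested with edgeR 4.0.16 (limma 3.58.1, R 4.3.3): TMM, filterByExpr with minimum count 10, robust quasi-likelihood F-test, two-sided, 1 coefficient per genotype, fraction and set, contrasts averaged over the 2 sets, Benjamini-Hochberg adjustment over all genes, threshold 0.05. The SE is the size of the log2 fold change divided by the square root of F. CPM used TMM over all 48 libraries, and log2 CPM a prior count of 2. Alternatives were RLE, library totals, no filter, DESeq2 1.42.0, 1 fit of all libraries, each set alone, a replicate block, IPs without inputs, and leaving out each library. Code was tested on simulated data. The members and lists were chosen with earlier results of these data known. Named list genes are up to 3 per direction and comparison, by size, that passed the threshold, kept 1 sign in the 2 sets and averaged a log2 CPM of at least 3.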

Additional observations from a re-analysis of the deposited data

Results flagged for a closer look

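In 3 of 30 tests of a Gadd45 gene the effect differed between libraries 1 to 3 and libraries 4 to 6. In the comparisons concerned 5.94%, 11.6% and 13.1% of all genes did so. The difference between Ago2 knockout and HA-Tnrc6a inputs in Gadd45a changed by -0.48 on the log2 scale from the first set to the second (edgeR adjusted p = 0.00512). The difference between inputs labelled Upf1 knockout and HA-Tnrc6a inputs in Gadd45a changed by -0.38 (edgeR adjusted p = 0.00632). In 1 fit of all 48 libraries these Gadd45a values were -0.47 and -0.40 and did not pass (edgeR adjusted p = 0.143 and 0.167). For Gadd45g the difference between inputs labelled Upf1 knockout and Ago2 knockout inputs changed by -1.51 (edgeR adjusted p = 0.00297). The depth of the libraries and the input level of Gadd45a in HA-Tnrc6a cells, 17.4 ± 1.06 CPM and 27.8 ± 2.92 CPM (SD, n = 3 each), moved with the set, and their part in these differences was not tested. Dixon's criterion flagged no library in the 24 groups of 6 libraries checked, 8 for each gene. Each group joined the 2 sets, whose levels differ, so a library apart within its own set could be missed.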

How the results depend on the processing

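Over 10 comparisons of 3 genes, no call or direction changed with RLE size factors, library totals, no filter on low counts, DESeq2 or the replicate block. Same-numbered libraries deviated together little (mean r = 0.068 over 168 pairs, -0.293 to 0.674, against -0.0335 for unlike numbers). For the same-numbered input and IP of a genotype, mean r was 0.104 over 24 pairs (-0.0609 to 0.509). The numbers were not read as a pairing, and the tests treat inputs and IPs as independent. With the replicate block Gadd45b differed by 1.46 in inputs labelled Upf1 knockout, and the block changed no call. That block is shared across genotypes, so it does not model a pairing of an input with its own IP. The cause of the changes below was not tested.

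In 1 fit of all 48 libraries Gadd45a in Ago2 knockout inputs was 0.17 and did not pass, its differences between sets were -0.47 (Ago2 knockout) and -0.40 (labelled Upf1 knockout) and did not pass, and Gadd45b enrichment from Ago2 knockout cells passed at 0.27. Genes past the threshold numbered 3902 in place of 6065 for Ago2 knockout inputs and 1937 in place of 2990 for untagged inputs.

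Libraries 4 to 6 alone turned the sign of Gadd45a (-0.07) and Gadd45g (0.22) in Ago2 knockout inputs, Gadd45g in untagged inputs (-0.13) and Gadd45a in recovery from cells labelled Upf1 knockout (0.11). Gadd45g no longer passed in inputs labelled Upf1 knockout (0.23), against Ago2 knockout inputs (0.01), in enrichment from cells labelled Upf1 knockout (-0.81) and in recovery between Ago2 knockout and labelled Upf1 knockout (0.82), nor did Gadd45b HA-Tnrc6a enrichment (-0.36). Gadd45a in untagged inputs (-0.26) and Gadd45b enrichment from Ago2 knockout cells (0.43) now passed, and 384 genes passed in recovery from cells labelled Upf1 knockout. With libraries 1 to 3 alone, Gadd45b in untagged inputs (0.29), Gadd45b HA-Tnrc6a enrichment (-0.44), Gadd45a enrichment from cells labelled Upf1 knockout (0.36) and Gadd45b Ago2 knockout recovery (0.57) did not pass. Counts were then 3382 (Ago2 knockout inputs), 652 (untagged inputs), 1623 (Ago2 knockout recovery), 162 (recovery labelled Upf1 knockout) and 2667 (recovery, Ago2 knockout against labelled Upf1 knockout).

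IPs compared without inputs measure another quantity, the IP level. Against untagged IPs, Gadd45g was -0.44 in HA-Tnrc6a (passing), Gadd45b -0.49 and Gadd45g -0.03 in Ago2 knockout, and Gadd45b 0.45 and Gadd45g -0.30 in IPs labelled Upf1 knockout. Against HA-Tnrc6a IPs, Gadd45g was 0.42 in Ago2 knockout (passing), and in IPs labelled Upf1 knockout Gadd45a was 0.43, Gadd45b 1.26, Gadd45g 0.17, Cdk1 -0.04, Egr1 -1.70, Atf3 0.48, Snhg12 0.68 and Snhg1 0.53. Between Ago2 knockout IPs and those labelled Upf1 knockout, Gadd45b was -0.99, Gadd45g 0.21, Atf3 -0.45, Trp53 0.01, Ppp1r15a -0.23 and Dnmt1 0.01. Genes past the threshold numbered 7482, 8805 and 10794 in these last 3 comparisons.

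Leaving out 1 library at a time gave ranges of 0.13 to 0.21 for Gadd45a in Ago2 knockout inputs (4 of 12 fits lost the call), 0.41 to 0.69 for Gadd45g in inputs labelled Upf1 knockout, -0.20 to -0.12 for Gadd45a and -0.02 to 0.16 for Gadd45g in untagged inputs, 0.18 to 0.34 for Gadd45b enrichment from Ago2 knockout cells, -0.85 to -0.55 for Gadd45g enrichment from cells labelled Upf1 knockout, 0.49 to 0.71 for Gadd45g Ago2 knockout recovery, and 591 to 957 genes for recovery in cells labelled Upf1 knockout. The other 562 of 576 such fits on the 3 genes kept direction and side of the threshold. Gadd45g had 15 to 108 counts per library, the fewest of the 3 genes.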

Other observations

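Genes of DNA demethylation and repair linked to Gadd45 proteins were read with the same comparisons. In inputs labelled Upf1 knockout 7 of 17 rose and 6 fell, beside 29.5% and 29.0% of all genes, with a median of -0.01 on the log2 scale beside -0.02. Neil1, a glycosylase of base excision repair, rose by 0.48 ± 0.08, and Tet2, which oxidises methylcytosine, fell by 0.34 ± 0.03. In HA-Tnrc6a enrichment 5 were higher and 8 lower, beside 29.8% and 32.2% of all genes, with a median of -0.17 beside -0.10. Tet3 was enriched by 2.66 ± 0.17 (edgeR adjusted p = 3.51e-15), and Nthl1, another glycosylase, was lower by -0.86 ± 0.11. In Ago2 knockout recovery 3 of 17 were higher and 1 lower, beside 9.09% and 12.3% of all genes. Tet2 was higher by 0.52 ± 0.07 (edgeR adjusted p = 2.1e-07) and Tdg by 0.30 ± 0.07 (edgeR adjusted p = 0.00105). Tet1 was lower by -0.78 ± 0.16 (edgeR adjusted p = 0.00144), at -1.36 in libraries 1 to 3 and -0.20 in libraries 4 to 6. Tet1 was also held by beads from untagged cells. In libraries 1 to 3 its log2 ratio of IP over input was 3.34 in untagged, 3.06 in HA-Tnrc6a and 1.72 in Ago2 knockout cells. In libraries 4 to 6 it was 0.93 in untagged and 0.91 in Ago2 knockout cells, with HA-Tnrc6a cells above both. Whether the fall concerns RNA held through Tnrc6a was not tested.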
